A study of Oryza sativa with 36 samples.

Results

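The transcripts described here are those of 10 rice loci that encode small heat shock proteins and the disaggregase HSP101, taken by their locus numbers from 33024 transcripts listed in the count tables of the study. They are the cytosolic small heat shock protein loci of chromosome 1 (loc_os01g04360.1, loc_os01g04370.1 and loc_os01g04380.1) and of chromosome 3 (loc_os03g15960.1, loc_os03g16020.1, loc_os03g16030.1 and loc_os03g16040.1), loc_os02g52150.1, loc_os03g14180.1, and HSP101 (loc_os05g44340.1). The libraries were made from root and shoot RNA of wild-type Nipponbare rice (Oryza sativa ssp. japonica), 3 weeks old, grown in hydroponics under a photoperiod of 12 h at 27 °C by day and 25 °C by night. The nutrient solution contained potassium phosphate, and the titles of all 36 libraries carry +P. Zaxinone, an apocarotenoid growth regulator, was given at 5 µM through the nutrient solution, and mock plants received the solvent acetone. Tissue was taken at 2, 6 and 24 h after the application, which gave 12 conditions with 3 libraries each and 36 libraries in all. No condition included a heat treatment. Time after application goes with time of day and plant age in this design, and these cannot be told apart.

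Small heat shock proteins bind proteins that begin to unfold and hold them in a soluble state without using ATP. HSP101, a ClpB-type chaperone, threads proteins out of aggregates with the help of HSP70 and is needed for acquired thermotolerance in Arabidopsis. Genes of both kinds are switched on by heat shock factors and are known for low transcript levels in unheated leaves and roots, with some small heat shock proteins also made during seed development.

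Total counts per library ran between 11261992 and 36469854, with a median of 25265203, and the smallest total was in zaxinone roots at 24 h. Levels are given as CPM, the read count scaled to the library total. Fold changes are on a log2 scale with TMM scaling between libraries, which CPM does not carry. Counts were fitted with the quasi-likelihood test of edgeR, and p-values were adjusted by the Benjamini-Hochberg method over all transcripts tested, with 0.05 as the threshold. The tissue labels were checked with marker genes: the summed level of 5 photosynthesis transcripts was 372 to 2931 CPM in roots and 34352 to 48215 CPM in shoots, and that of the silicon transporters Lsi1 and Lsi2 was 3151 to 7164 CPM in roots and 8.59 to 16.8 CPM in shoots. The study's methods describe the replicates of its experiments as independent biological replicates, while the labels do not name the plants behind each library. In bulk tissue, more cells that express a transcript and more RNA per cell cannot be told apart.

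The 10 transcripts differed widely in how many reads they had, and 8 of them were listed in all 6 tables. The small heat shock protein transcript loc_os02g52150.1 had 24 to 1366 counts per library, a level of 0.933 to 74.0 CPM with a median of 26.0 CPM. All 4 small heat shock protein transcripts of the chromosome 3 group were detected in every library. Among them loc_os03g15960.1 had 2.46 to 31.2 CPM, loc_os03g16020.1 had 1.30 to 23.5 CPM, loc_os03g16030.1 had 0.192 to 24.4 CPM and loc_os03g16040.1 had 4.65 to 11.1 CPM. As a ratio of the highest to the lowest library, loc_os03g16030.1 varied most of the 4 and loc_os03g16040.1 least.

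The chromosome 1 group was low. The transcript loc_os01g04380.1 reached 76 counts and 3.11 CPM, loc_os01g04370.1 reached 80 counts and 2.19 CPM, and loc_os01g04360.1 reached 7 counts in a library and 61 counts over all 36. The other low small heat shock protein transcript, loc_os03g14180.1, had 18 counts in all and none in 24 libraries. Neither loc_os01g04360.1 nor loc_os03g14180.1 had enough counts to enter any test. The first was taken as 0 in roots at 24 h and the second in shoots at 24 h, where the tables did not list them. HSP101 was detected in every library at 2 to 28 counts, 0.0981 to 1.33 CPM. Reads shared between near-identical loci may have been split or dropped in the counting, so values for neighbouring loci such as loc_os03g16020.1 and loc_os03g16030.1 are uncertain in that respect.

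**Figure D1:**
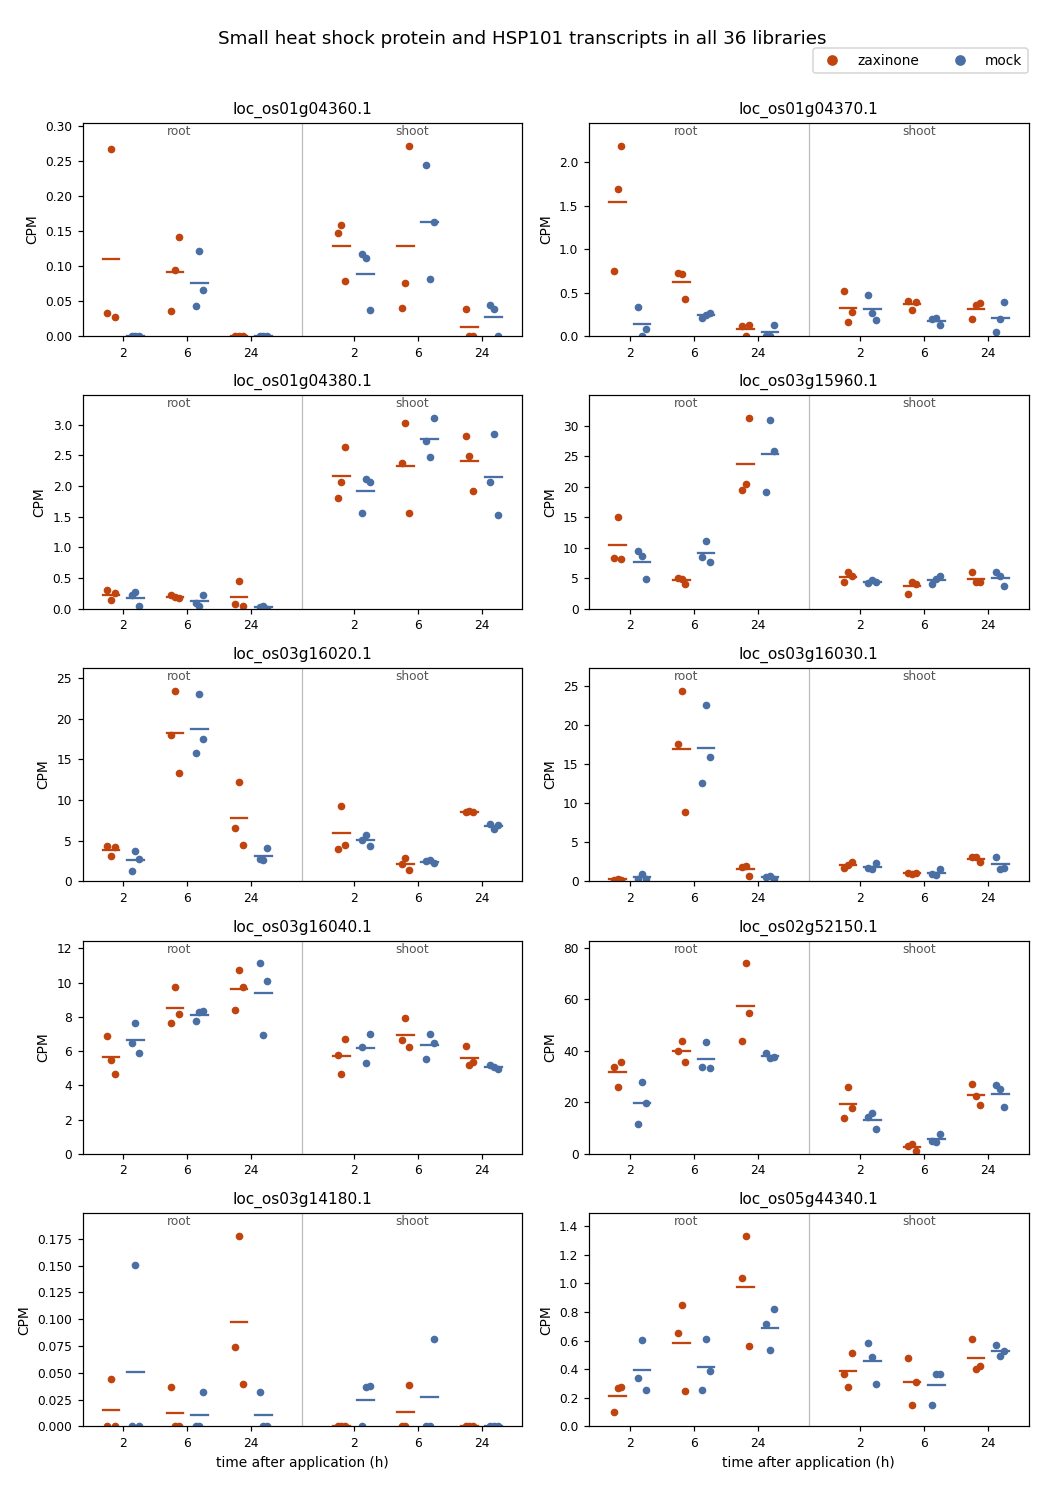
Level of each of the 10 transcripts (vertical axis, CPM, own scale in each panel) in roots and shoots at 2, 6 and 24 h after application (horizontal axis). Each point is 1 library, short lines are means of 3 libraries, and zaxinone stands left of mock. For loc_os03g16030.1 the 2 treatments lie side by side in roots at 6 h, at 8.81 to 24.4 CPM in zaxinone roots and 12.6 to 22.6 CPM in mock roots.

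In roots, 1 small heat shock protein transcript passed the test of zaxinone against mock. At 6 h, loc_os03g15960.1 was at 3.96, 4.86 and 5.08 CPM in zaxinone roots, against 7.67, 8.47 and 11.2 CPM in mock roots. All 3 zaxinone libraries lay below all 3 mock libraries. The transcript fell by 0.98 on the log2 scale (SE 0.19, adjusted p = 0.0403 in the edgeR quasi-likelihood test, Benjamini-Hochberg adjusted). It was the only call among 7 members tested, where 1.61% of all transcripts tested were called. The call was lost in 5 of 6 fits with 1 library left out, with log2 changes of -1.09 to -0.81 and adjusted p-values up to 0.126, and in a fit of all 18 root libraries (adjusted p = 0.53). DESeq2 gave a log2 change of -0.98 with an adjusted p of 0.000401 and called it, where it called 1135 of all transcripts. The other 6 members tested at 6 h had log2 changes between -0.05 and 1.34, and the median over the 7 was 0.06, beside a median of -0.0044 over all transcripts tested. The member at 1.34, loc_os01g04370.1, passed the filter on low counts through the zaxinone libraries, so the median describes the members tested.

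The largest difference in size, in roots at 2 h, was that of the chromosome 1 transcript loc_os01g04370.1. It had 23, 38 and 80 counts in zaxinone roots, levels of 0.752, 1.70 and 2.19 CPM. Mock roots at 2 h had 0, 2 and 9 counts, levels of 0, 0.0844 and 0.336 CPM. The lowest zaxinone library was above the highest mock library, and the 3 mock libraries were all near 0. The log2 fold change was 3.43 (SE 0.86, adjusted p = 0.175 in the edgeR quasi-likelihood test, Benjamini-Hochberg adjusted), so it did not pass. DESeq2 gave 3.47 with an adjusted p of 0.00434 and called it. At 6 h the same transcript had 12, 15 and 20 counts in zaxinone roots against 5, 6 and 8 in mock roots, again without overlap. The log2 fold change was 1.34 (SE 0.40) with an edgeR adjusted p of 0.152. It entered the tests at 2 h and 6 h through the zaxinone libraries, where it was high. At 24 h it had at most 3 counts in any root library. Its neighbour loc_os01g04360.1 had 1, 1 and 6 counts in zaxinone roots at 2 h and none in the 3 mock libraries, too few for a test.

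At 2 h in roots, edgeR called 0 of 5 members tested, where 0.636% of all transcripts tested were called. At an unadjusted p under 0.05 there were 2, loc_os01g04370.1 and loc_os02g52150.1, and DESeq2 called the first of them. Over all transcripts tested, 1804 of 23573 had an unadjusted p under 0.05 in edgeR, and DESeq2 called 468. The transcript loc_os02g52150.1 was at 33.6, 26.0 and 35.6 CPM in zaxinone roots and 11.6, 27.8 and 19.5 CPM in mock roots. The ranges overlapped through 1 mock library, and the log2 fold change was 0.72 (SE 0.28, edgeR adjusted p = 0.529). The median log2 fold change of the 5 members was 0.60, beside -0.0066 over all transcripts tested. The low transcript loc_os01g04370.1 entered this test through the zaxinone libraries, so medians and counts over the members tested describe those members and not all 10.

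At 24 h in roots, none of the members tested passed. For 3 of the small heat shock protein transcripts tested, every zaxinone library stood above every mock library in CPM. The share of all transcripts that separated in this way was not counted, so the 3 are described and not read as a result. The low transcript loc_os03g14180.1, which was not tested, had 1, 2 and 2 counts in zaxinone roots and 0, 0 and 1 in mock roots. Here too the lowest zaxinone library (0.0400 CPM) stood above the highest mock library (0.0324 CPM), with 1 count in each. The transcript loc_os03g16020.1 was at 6.61, 12.2 and 4.48 CPM in zaxinone roots, against 2.69, 2.56 and 4.09 CPM in mock roots (log2 fold change 1.36, SE 0.44). Its neighbour loc_os03g16030.1 was at 1.86, 1.95 and 0.720 CPM in zaxinone roots, against 0.487, 0.628 and 0.328 CPM in mock roots (log2 fold change 1.68, SE 0.53). For loc_os02g52150.1 the levels were 44.0, 74.0 and 54.6 CPM in zaxinone roots and 39.2, 37.3 and 37.7 CPM in mock roots (log2 fold change 0.64, SE 0.25). The 3 edgeR adjusted p-values were 0.524, 0.52 and 0.581. For all 3 the highest level was in the zaxinone library with the smallest total, 11261992 counts. Without it the log2 fold changes were 0.86 for loc_os03g16020.1, 1.46 for loc_os03g16030.1 and 0.40 for loc_os02g52150.1. Of 6 members tested, 0 were called, 3 had an unadjusted p under 0.05, and DESeq2 called 0. Over all transcripts tested, 0.00423% were called, 1997 of 23616 had an unadjusted p under 0.05, and DESeq2 called 415. The median log2 fold change of the 6 was 0.58, beside -0.0025 over all transcripts. Among the 6, loc_os03g16030.1 passed the filter on low counts only with the zaxinone libraries, so the median describes the members tested.

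In shoots, no member passed the test at any time. At 2 h, 0 of 7 tested were called, beside 0% of all transcripts, and the median log2 fold change was 0.20. At 6 h, 0 of 6 were called, beside 0.00433%, and the median was -0.25. At 24 h, 0 of 7 were called, beside 0%, and the median was 0.15. The medians over all transcripts tested in shoots were -0.0010, -0.0043 and -0.00045. At an unadjusted p under 0.05 there was 1 member at each time: loc_os02g52150.1 at 2 h and 6 h and loc_os03g16020.1 at 24 h. Over all transcripts tested, 941 of 23281, 2733 of 23084 and 901 of 22786 were under it at 2, 6 and 24 h. DESeq2 called 0 members at 2 h, 1 at 6 h and 0 at 24 h, beside 1, 144 and 3 of all transcripts.

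That transcript at 6 h was loc_os02g52150.1. Its level was 0.933, 2.90 and 3.63 CPM in zaxinone shoots, against 4.73, 4.98 and 7.52 CPM in mock shoots. The groups did not overlap, and the log2 fold change was -1.27 (SE 0.37, edgeR adjusted p = 0.284, DESeq2 adjusted p = 0.0378). At 2 h the difference had the opposite sign, with 13.7, 17.7 and 26.1 CPM in zaxinone shoots and 9.65, 14.2 and 15.8 CPM in mock shoots (log2 fold change 0.55, SE 0.22), and the ranges overlapped. For loc_os03g16020.1 at 24 h, zaxinone shoots were at 8.53, 8.56 and 8.59 CPM and mock shoots at 6.44, 6.95 and 7.05 CPM. Here the spread was small in both groups and they did not overlap, with a log2 fold change of 0.34 (SE 0.12, edgeR adjusted p = 1).

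**Figure D2:**
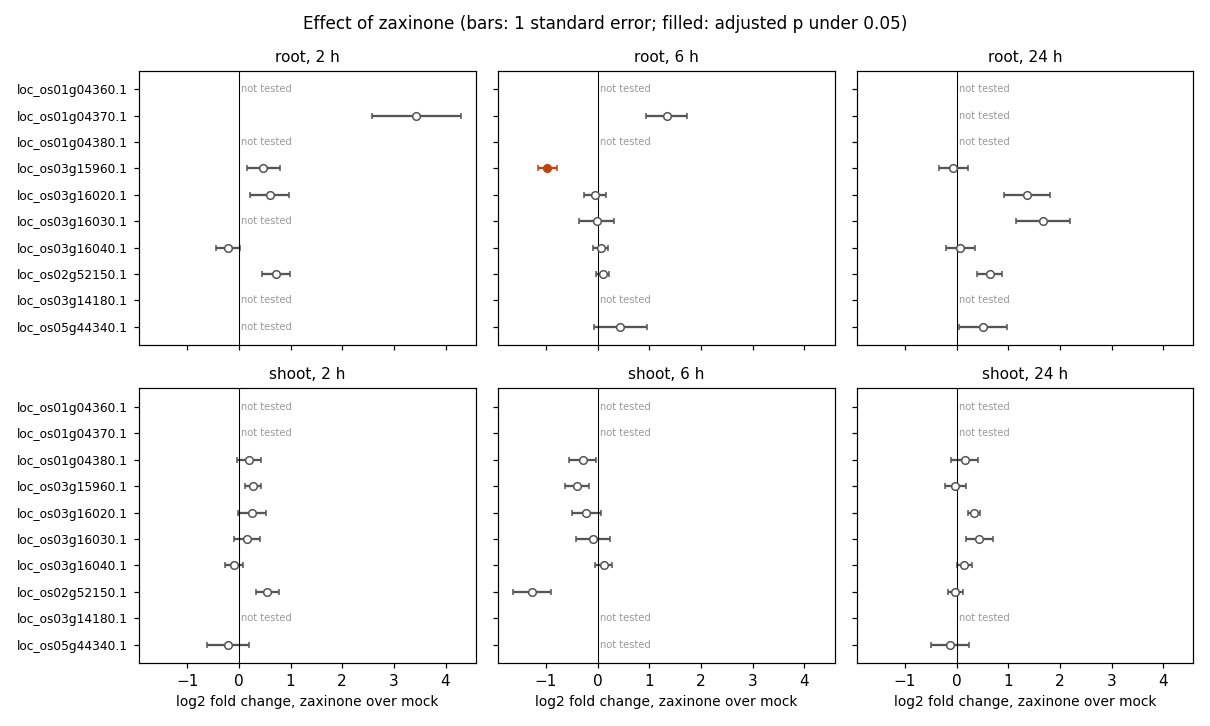
Log2 fold change of zaxinone over mock (horizontal axis) for each transcript (rows) in roots and shoots at 2, 6 and 24 h. Points are edgeR estimates from 3 libraries against 3, bars are 1 standard error, and the filled point has an adjusted p under 0.05. The filled point is loc_os03g15960.1 in roots at 6 h, at -0.98, and the point farthest from 0 is loc_os01g04370.1 in roots at 2 h, at 3.43.

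Whether the effect of zaxinone differed between tissues or times was tested as an interaction. No member passed any of the 7 tests in edgeR, and DESeq2 called 0 members in each. For the effect in root against shoot, 0 of 8, 0 of 8 and 0 of 7 members tested were called at 2, 6 and 24 h, beside 0.206%, 0.0545% and 0.0157% of all transcripts, and 1 member had an unadjusted p under 0.05 at each time. For the effect in root at 6 h and at 24 h against 2 h, 0 of 7 members were called in each, beside 0.00401% and 0.016%, with 1 member at an unadjusted p under 0.05 in each. For the effect in shoot at 6 h and at 24 h against 2 h, 0 of 8 members were called in each, beside 0% and 0%, with 2 and 0 members at an unadjusted p under 0.05. Over all transcripts, 1615 of 25688, 3478 of 25665 and 1723 of 25452 were under it for root against shoot at 2, 6 and 24 h. Between times these were 1134 and 2412 of 24956 in root and 1557 and 759 of 24141 in shoot. For loc_os02g52150.1 in root against shoot at 6 h, the log2 difference was 1.37 (SE 0.40, edgeR adjusted p = 0.162, DESeq2 adjusted p = 0.051). For loc_os01g04370.1 in root against shoot at 2 h it was 3.32 (SE 1.10, edgeR adjusted p = 0.529). The latter transcript entered that test through the zaxinone root libraries, where it was high. For loc_os03g16030.1 in root at 24 h against 2 h, DESeq2 gave a log2 difference of 2.74 (DESeq2 adjusted p = 0.0558).

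Between times in mock plants, 2 or 3 members passed each test, where 19% to 45.2% of all transcripts did. In mock roots, the neighbouring small heat shock protein transcripts loc_os03g16020.1 and loc_os03g16030.1 were high at 6 h and low at 2 and 24 h. The level of loc_os03g16030.1 was 0.224, 0.338 and 0.868 CPM at 2 h, 12.6, 15.9 and 22.6 CPM at 6 h, and 0.328, 0.487 and 0.628 CPM at 24 h. All 3 libraries at 6 h lay far above the 6 libraries at the other times. The log2 change was 5.08 at 6 h over 2 h (SE 0.41, adjusted p = 1.4e-05) and -5.12 at 24 h over 6 h (SE 0.41, adjusted p = 5.99e-06, both from the edgeR quasi-likelihood test, Benjamini-Hochberg adjusted). That of loc_os03g16020.1 was 1.30, 2.79 and 3.74 CPM at 2 h, 15.8, 17.5 and 23.0 CPM at 6 h, and 2.56, 2.69 and 4.09 CPM at 24 h. It had log2 changes of 2.78 at 6 h over 2 h (SE 0.33, edgeR adjusted p = 0.000191) and -2.56 at 24 h over 6 h (SE 0.32, edgeR adjusted p = 0.000158). Neither transcript passed the test of 24 h against 2 h, with log2 changes of -0.04 (SE 0.49) for loc_os03g16030.1 and 0.22 (SE 0.33) for loc_os03g16020.1.

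In zaxinone roots both transcripts were also highest at 6 h, and no test between times was run on zaxinone libraries alone. In these roots loc_os03g16030.1 was at 0.192, 0.196 and 0.312 CPM at 2 h, 8.81, 17.6 and 24.4 CPM at 6 h, and 0.720, 1.86 and 1.95 CPM at 24 h. Its neighbour loc_os03g16020.1 was at 3.12, 4.20 and 4.32 CPM at 2 h, 13.4, 18 and 23.5 CPM at 6 h, and 4.48, 6.61 and 12.2 CPM at 24 h. The libraries at 6 h were thus the highest of the 9 zaxinone root libraries for both. Every zaxinone library at 24 h lay above every zaxinone library at 2 h for both transcripts, for loc_os03g16020.1 by 4.48 against 4.32 CPM at the closest. In mock roots the ranges of these times overlapped. The share of all transcripts that separated in this way was not counted. Neither transcript was called in the interaction test of the effect of zaxinone in root at 24 h against 2 h. The ratio of the counts of the 2 transcripts within a library also moved with time. The counts of loc_os03g16030.1 per count of loc_os03g16020.1 were 0.0455 to 0.10 in zaxinone roots and 0.121 to 0.232 in mock roots at 2 h. They were 0.659 to 1.04 in zaxinone roots and 0.797 to 0.979 in mock roots at 6 h. At 24 h they were 0.161 to 0.281 in zaxinone roots and 0.0800 to 0.245 in mock roots. In the 18 shoot libraries the ratio was 0.220 to 0.722, and the ranges of the 3 times overlapped. The ratio at 2 h rests on 6 to 23 counts of loc_os03g16030.1 per root library. The ratio was examined after the values were seen and was not tested.

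**Figure D3:**
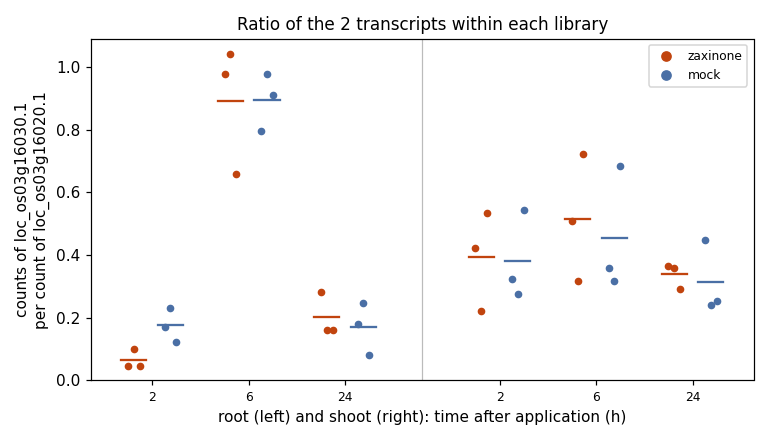
Counts of loc_os03g16030.1 per count of loc_os03g16020.1 (vertical axis, ratio within a library) in roots and shoots at 2, 6 and 24 h after application (horizontal axis). Points are libraries, lines are means of 3, and zaxinone stands left of mock. Root libraries at 6 h lie between 0.659 and 1.04, above all root libraries at 2 and 24 h, of which the highest is at 0.281.

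The other members of the chromosome 3 group followed other courses in mock roots. The transcript loc_os03g15960.1 was high at 24 h, with 4.90, 8.61 and 9.47 CPM at 2 h, 7.67, 8.47 and 11.2 CPM at 6 h, and 19.1, 25.8 and 30.9 CPM at 24 h. Its log2 change was 1.69 at 24 h over 2 h (SE 0.26, edgeR adjusted p = 0.000776) and 1.51 at 24 h over 6 h (SE 0.25, edgeR adjusted p = 0.0012). In contrast, loc_os03g16040.1 varied little, with means of 6.66 ± 0.88, 8.13 ± 0.33 and 9.40 ± 2.2 CPM at 2, 6 and 24 h (SD, n = 3 each), and passed none of the 3 tests. The transcript loc_os02g52150.1 was at 11.6, 19.5 and 27.8 CPM at 2 h, 33.4, 33.8 and 43.4 CPM at 6 h, and 37.3, 37.7 and 39.2 CPM at 24 h. It was higher at 6 h than at 2 h by 0.85 on the log2 scale (SE 0.24, edgeR adjusted p = 0.0255) and at 24 h than at 2 h by 0.92 (SE 0.24, edgeR adjusted p = 0.0177). These 2 calls lay near the threshold: the first was lost in 4 of 9 fits with 1 library left out, with adjusted p-values up to 0.0956, and the second in 1 of 9, without mock root 24 h replicate 3 (adjusted p = 0.051). In that fit 1 member was called between 24 h and 2 h in place of 2, and without mock root 24 h replicate 2 there were 3, as loc_os03g16040.1 was called too (adjusted p = 0.0481).

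In all, 3 of 6 members tested in mock roots were called at 6 h over 2 h, all higher, where 20.7% of all transcripts tested were called. At 24 h over 2 h, 2 of 6 were called, both higher, where 19% were called. At 24 h over 6 h, 3 of 6 were called, 1 higher and 2 lower, where 20.8% were called. The median log2 changes of the 6 were 0.53, 0.61 and 0.16, beside 0.0034, -0.0018 and 0.00064 over all transcripts.

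In mock shoots, loc_os02g52150.1 and the same neighbouring pair of transcripts were lowest at 6 h. The level of loc_os02g52150.1 was 9.65, 14.2 and 15.8 CPM at 2 h, 4.73, 4.98 and 7.52 CPM at 6 h, and 18.1, 25.2 and 26.6 CPM at 24 h. The 3 times did not overlap. The log2 change was -1.27 at 6 h over 2 h (SE 0.20, edgeR adjusted p = 0.000265), 2.16 at 24 h over 6 h (SE 0.20, edgeR adjusted p = 4.38e-07) and 0.90 at 24 h over 2 h (SE 0.18, edgeR adjusted p = 0.00197). For loc_os03g16020.1 the levels were 4.34, 5.08 and 5.65 CPM at 2 h, 2.21, 2.44 and 2.55 CPM at 6 h, and 6.44, 6.95 and 7.05 CPM at 24 h. Its 3 times did not overlap either, with log2 changes of -1.13 at 6 h over 2 h (SE 0.16, edgeR adjusted p = 6.48e-05), 1.65 at 24 h over 6 h (SE 0.15, edgeR adjusted p = 4.57e-07) and 0.52 at 24 h over 2 h (SE 0.14, edgeR adjusted p = 0.0122). The last of these was lost without mock shoot 2 h replicate 3 (adjusted p = 0.0533), which left 1 member called between 24 h and 2 h. In a fit of all 36 libraries both calls at 24 h over 2 h were lost, with adjusted p-values of 0.435 for loc_os03g16020.1 and 0.0693 for loc_os02g52150.1. The transcript loc_os03g16030.1 was at 1.56, 1.64 and 2.36 CPM at 2 h, 0.809, 0.878 and 1.51 CPM at 6 h, and 1.55, 1.75 and 3.15 CPM at 24 h. Its log2 change at 6 h over 2 h was -0.86 and did not pass in edgeR (edgeR adjusted p = 0.0631, DESeq2 adjusted p = 0.0479). It rose at 24 h over 6 h by 1.14 on the log2 scale (SE 0.33, edgeR adjusted p = 0.0105), a call that was lost without mock shoot 24 h replicate 1, the highest library (0.78, adjusted p = 0.0789).

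The counts in mock shoots were 2 of 7 members called at 6 h over 2 h, both lower, where 29.5% of all transcripts were called. At 24 h over 2 h they were 2 of 7, both higher, where 29.4% were called. At 24 h over 6 h they were 3 of 7, all higher, where 45.2% were called. The medians of the 7 were -0.66, 0.28 and 0.95, beside -0.0010, -0.013 and -0.024 over all transcripts. The remaining members tested in shoots, loc_os01g04380.1, loc_os03g15960.1, loc_os03g16040.1 and HSP101, passed none of the 3 tests.

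A test of the difference between the tissues, added after these values were seen, compared the change with time in root against that in shoot in 1 fit of the 18 mock libraries. For the change between 2 h and 6 h, 3 of 7 members tested were called, where 12.7% of all transcripts were called. These were loc_os03g16030.1 with a log2 difference of 5.94 (SE 0.56, edgeR adjusted p = 4.08e-06), loc_os03g16020.1 with 3.92 (SE 0.38, edgeR adjusted p = 4.71e-06) and loc_os02g52150.1 with 2.12 (SE 0.36, edgeR adjusted p = 0.000903). For the change between 6 h and 24 h, 4 of 7 were called, where 15% of all transcripts were called. Root minus shoot was -6.26 for loc_os03g16030.1, -4.21 for loc_os03g16020.1, -2.09 for loc_os02g52150.1 and 1.28 for loc_os03g15960.1. For the change between 2 h and 24 h, 2 of 7 were called, where 19.4% of all transcripts were called. They were loc_os03g15960.1 at 1.42 (SE 0.34, edgeR adjusted p = 0.00786) and loc_os01g04380.1 at -2.83 (SE 0.94, edgeR adjusted p = 0.0424), and the call of loc_os01g04380.1, which had 2 counts in mock roots at 24 h in all, was lost in 14 of 18 fits with 1 library left out, with adjusted p-values up to 0.114.

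Between the tissues, the difference that held at every time was that of the chromosome 1 transcript loc_os01g04380.1. It had 0 to 7 counts in each of the 9 mock root libraries, at most 0.264 CPM, and 35 to 76 counts in each of the 9 mock shoot libraries, at least 1.53 CPM. It was lower in root by 3.70, 4.69 and 6.5 on the log2 scale at 2, 6 and 24 h (SE 0.51, 0.40 and 0.57), with adjusted p-values of 0.000168, 1.14e-06 and 4.15e-06 in the edgeR quasi-likelihood test, Benjamini-Hochberg adjusted. Zaxinone roots had at most 9 counts and zaxinone shoots at least 40. The shoot marker transcripts named above were also found at a low level in every root library, and their part in the root counts of loc_os01g04380.1 was not tested. The transcript entered these tests through the shoot libraries. Its neighbours loc_os01g04360.1 and loc_os01g04370.1 were not tested between the tissues.

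The chromosome 3 transcripts and loc_os02g52150.1 changed their tissue difference with time. In mock plants loc_os03g16030.1 was at 0.224 to 0.868 CPM in root and 1.56 to 2.36 CPM in shoot at 2 h, with a log2 difference of -2.28 (SE 0.50, edgeR adjusted p = 0.00311). At 6 h it was at 12.6 to 22.6 CPM in root and 0.809 to 1.51 CPM in shoot, with a log2 difference of 3.70 (SE 0.28, edgeR adjusted p = 4.06e-07). At 24 h it was again lower in root, by 2.57 (SE 0.38, edgeR adjusted p = 0.000163). At 2 h and 24 h it passed the filter on low counts only with the shoot libraries, where it was higher. Its neighbour loc_os03g16020.1 had the same order of signs, with log2 differences of -1.28, 2.68 and -1.54 (SE 0.35, 0.18 and 0.20). The transcript loc_os02g52150.1 was higher in root at 6 h by 2.39 (SE 0.17, edgeR adjusted p = 2.59e-07) and passed at neither other time. Root was higher for loc_os03g15960.1 by 0.64 at 6 h (SE 0.18) and 1.91 at 24 h (SE 0.23), and for loc_os03g16040.1 by 0.47 at 24 h (SE 0.17, edgeR adjusted p = 0.0351), a call lost in 5 of 6 fits with 1 library left out, with adjusted p-values up to 0.148. TMM scaling matters for the small differences: loc_os03g16040.1 at 2 h averaged 6.66 CPM in root and 6.16 CPM in shoot and had a log2 difference of -0.22.

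In counts, 3 of 7 members tested at 2 h differed between root and shoot, all lower in root, where 64.8% of all transcripts tested did. At 6 h 5 of 6 differed, 4 higher and 1 lower in root, where 72.6% of all transcripts did, and at 24 h 5 of 7 differed, 2 higher and 3 lower, where 72% did. The medians of the members were -0.51, 1.52 and -0.03, beside -0.0062, -0.00058 and 0.037 over all transcripts. Of the called members, loc_os01g04380.1 at each time and loc_os03g16030.1 at 2 h and 24 h entered through the shoot libraries. These counts and medians therefore describe the members tested.

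HSP101 stayed low in all 12 conditions and passed none of the tests it entered. In roots the means were 0.213 ± 0.10, 0.584 ± 0.31 and 0.977 ± 0.39 CPM at 2, 6 and 24 h with zaxinone and 0.398 ± 0.18, 0.418 ± 0.18 and 0.688 ± 0.15 CPM with mock (SD, n = 3 each). In shoots they were 0.386 ± 0.12, 0.313 ± 0.16 and 0.477 ± 0.11 CPM with zaxinone and 0.456 ± 0.15, 0.293 ± 0.13 and 0.529 ± 0.039 CPM with mock (SD, n = 3 each). The highest and the lowest mean were both in zaxinone roots, at 24 h and at 2 h. At this depth HSP101 had 19 to 57 counts over the 3 libraries of a condition, and differences were not detectable below a certain size. For zaxinone against mock at 24 h in roots, the log2 fold change was 0.51. Its approximate 95% interval, by a normal approximation that is too narrow for so few libraries, was -0.40 to 1.42. In roots at 2 h and in shoots at 6 h it did not pass the filter on low counts for the comparison of zaxinone with mock. Over the 36 libraries, the transcripts outside the 10 whose log2 CPM followed that of HSP101 most closely were loc_os06g39140.1 (Pearson's r = 0.77) and loc_os01g39890.1 (r = 0.77), out of 22473 transcripts with a mean of at least 1 CPM. The libraries share tissues, times and depth, so r is given as a description.

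Other heat shock loci were counted in 3 lists drawn from general knowledge of rice, since neither the tables nor the reference used here annotates these loci. Of 9 other small heat shock protein loci, 6 were tested in roots and 5 in shoots. Zaxinone against mock called 0 at each time in edgeR, with 7 values at an unadjusted p under 0.05 over the 6 comparisons, and DESeq2 called 1, in roots at 2 h. The median log2 fold change of this list was 0.20, -0.13 and 0.55 at 2, 6 and 24 h in roots, while shoots had 0.11, -0.25 and 0.12. Of 10 loci for HSP90, HSP70 and other ClpB proteins, the chaperones that refold what small heat shock proteins hold, 9 were tested, and 0 were called at each time in edgeR, with 6 values at an unadjusted p under 0.05 over the 6 comparisons and 1 called by DESeq2, in roots at 2 h. The medians were between -0.05 and 0.38. Of 24 loci for heat shock factors, the family of regulators that acts on these genes, 19 or 20 were tested. In roots at 2 h edgeR called 2, both higher, where 0.636% of all transcripts were called. In roots at 6 h it called 1, higher, where 1.61% were called. Whether a given factor of this list raises or lowers the small heat shock protein transcripts was not tested. DESeq2 called 4 of these loci in roots at 2 h and 1 at 6 h. In edgeR there were 0 calls in roots at 24 h and in shoots at 2, 6 and 24 h, where 0, 3, 2 and 1 had an unadjusted p under 0.05 and DESeq2 called 0. Over all transcripts, 1804 of 23573, 3984 of 23884 and 1997 of 23616 were under it in roots at 2, 6 and 24 h. In shoots these were 941 of 23281, 2733 of 23084 and 901 of 22786. DESeq2 called 468 of all transcripts in roots at 2 h and 1135 at 6 h.

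In this last list, loc_os05g45410.1 was at 30.03 ± 12 CPM in zaxinone roots and 2.03 ± 0.49 CPM in mock roots at 2 h (SD, n = 3 each), with a log2 fold change of 3.90 (SE 0.33, edgeR adjusted p = 0.000738). At 6 h it was at 6.22 ± 1.4 CPM in zaxinone roots and 2.23 ± 0.50 CPM in mock roots, 1.48 on the log2 scale (SE 0.24, edgeR adjusted p = 0.0215), a call lost in 4 of 6 fits with 1 library left out (adjusted p up to 0.102) and in a fit of all 18 root libraries (adjusted p = 0.0666). The effect in root against shoot at 2 h differed by 3.87 (SE 0.43, edgeR adjusted p = 0.00153). The other call was loc_os09g35790.1 at 2 h, at 45.2 ± 2.8 CPM in zaxinone roots and 17.8 ± 2.6 CPM in mock roots (log2 fold change 1.37, SE 0.15, edgeR adjusted p = 0.00386). At the same time and in the same libraries, the small heat shock protein transcripts loc_os03g15960.1, loc_os03g16020.1, loc_os03g16040.1, loc_os02g52150.1 and loc_os01g04370.1 had log2 fold changes of 0.47, 0.60, -0.21, 0.72 and 3.43, and none of the 5 passed in edgeR.

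With time in mock plants, the lists showed both directions. Over all transcripts, 20.7% and 20.8% were called in mock roots at 6 h over 2 h and at 24 h over 6 h, and 29.5% and 45.2% in mock shoots. In mock roots at 6 h over 2 h, 3 of 6 other small heat shock protein loci tested were higher and 0 lower, and at 24 h over 6 h 0 were higher and 2 lower. Among the chaperones, 1 was higher and 3 were lower of 9 at 6 h over 2 h, and 6 were higher and 1 lower at 24 h over 6 h. In mock shoots, 0 of 9 chaperones were higher and 4 lower at 6 h over 2 h, and 7 were higher and 0 lower at 24 h over 6 h, with a median log2 change of 0.997 beside -0.024 over all transcripts. The other small heat shock proteins there had 1 higher and 3 lower of 5 at 6 h over 2 h, and 2 higher and 2 lower at 24 h over 6 h.

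**Figure D4:**
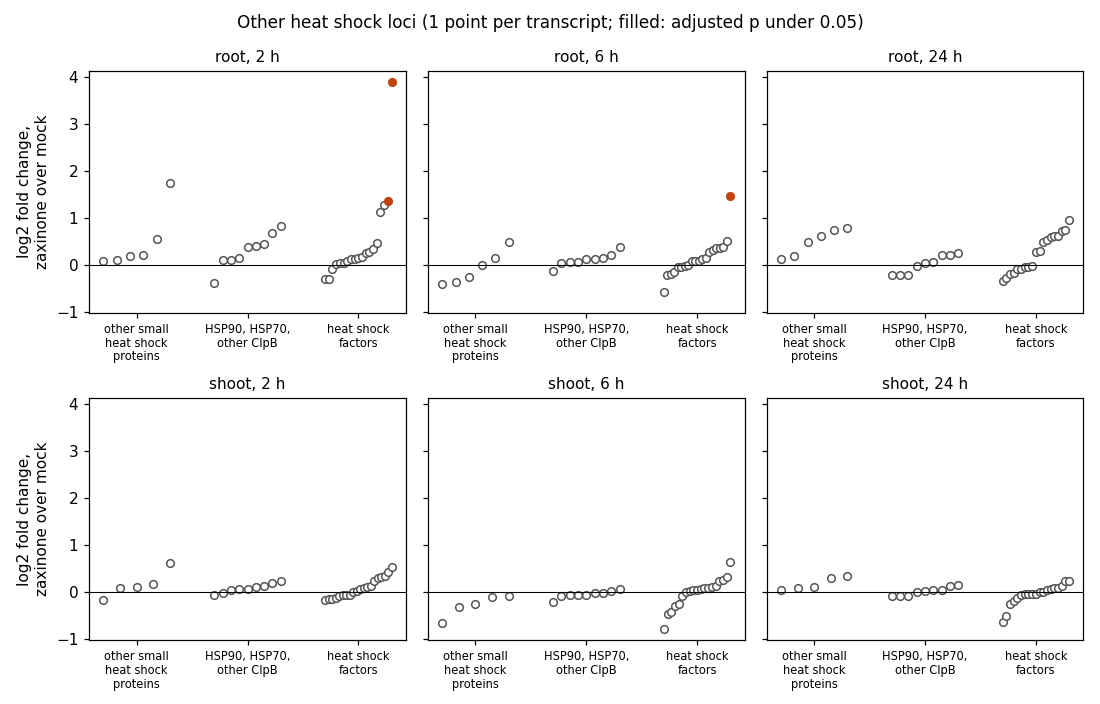
Log2 fold change of zaxinone over mock (vertical axis) for the loci of 3 other heat shock lists (horizontal axis) in roots and shoots at 2, 6 and 24 h. Each point is 1 transcript that was tested, ordered by its value within a list, and filled points have an adjusted p under 0.05. The filled points are heat shock factor loci in roots, 2 at 2 h, the higher at 3.90, and 1 at 6 h, at 1.48.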

How the data were processed

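RNA-seq counts of 36 libraries were analysed. The authors used LSTrAP, with Trimmomatic for trimming, HISAT2 for alignment to the rice genome and HTSeq for counting, and the deposited counts are raw counts per transcript in 1 table for each tissue and time. The tables also hold the authors' log2 fold changes and p-values, which were not used. A transcript that a table did not list was taken as 0.

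The tables of counts were joined, and CPM was computed from the deposited totals. Comparisons were fitted in R 4.3.3 with edgeR 4.0.16 (TMM, filterByExpr with a minimum count of 10, glmQLFit and glmQLFTest), with limma 3.58.1 and, as an alternative, DESeq2 1.42.0. Fits were tested on simulated data. Zaxinone was compared with mock in 6 libraries per tissue and time, root with shoot in 6 mock libraries per time, times in the 9 mock libraries of a tissue, and interactions in 12 or 18 libraries. Other alternatives were DESeq2 size factors, no filter, a mean of at least 10 counts, larger fits, the replicate number as a block, and each library left out. The members and lists were chosen with earlier results of these data known. By rule, all 10 members, list loci called between zaxinone and mock, and the 2 transcripts most like HSP101 on log2(CPM + 0.5) were named. Over 18 zaxinone and mock pairs with the same replicate number, the correlation of their deviations was -0.262 to 0.322, and all 3 pairs exceeded 0.1 only in shoots at 2 h (0.110, 0.158 and 0.190), so the numbers were not taken to pair the other samples. No 2 libraries of a condition agreed within sampling noise. Standard errors of log2 fold changes were derived from the estimate and the F statistic of its test. Intervals cover the spread between libraries and use a normal approximation. Sequences of the loci were not used here.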

Additional observations from a re-analysis of the deposited data

Results flagged for a closer look

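The change with time in mock plants differed between root and shoot for several members, by a test added after the values were seen (edgeR quasi-likelihood, Benjamini-Hochberg adjusted). At 6 h against 2 h, the log2 difference of root minus shoot was 5.94 for loc_os03g16030.1, 3.92 for loc_os03g16020.1 and 2.12 for loc_os02g52150.1, with adjusted p-values of 4.08e-06, 4.71e-06 and 0.000903. At 24 h against 6 h, it was -6.26 for loc_os03g16030.1, -4.21 for loc_os03g16020.1, -2.09 for loc_os02g52150.1 and 1.28 for loc_os03g15960.1, with adjusted p-values of 5.68e-07, 5.52e-07, 0.000466 and 0.0159. At 24 h against 2 h, it was 1.42 for loc_os03g15960.1 and -2.83 for loc_os01g04380.1, with adjusted p-values of 0.00786 and 0.0424. The call of loc_os01g04380.1, which had 2 counts in all in mock roots at 24 h, held in only 4 of 18 fits with 1 library left out. It was also lost with the replicate number as a block (edgeR adjusted p = 0.0568).

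The effect of zaxinone on the heat shock factor list's loc_os05g45410.1 differed between root and shoot at 2 h by 3.87 on the log2 scale (SE 0.43, edgeR adjusted p = 0.00153), and in root between 24 h and 2 h by -3.28 (SE 0.42, edgeR adjusted p = 0.0049).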

How the results depend on the processing

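The counts of members called between zaxinone and mock were few and moved with the settings. DESeq2 in place of edgeR called 1 member in roots at 2 h and 1 in shoots at 6 h, where edgeR called 0 in each. A fit of all 18 root libraries called 0 members at 6 h in place of 1. With 1 library left out at a time, the count was 0 to 1 in roots at 6 h and 0 to 1 in shoots at 6 h, where loc_os02g52150.1 was called without zaxinone shoot 6 h replicate 2, the smaller library (log2 fold change -1.59, adjusted p = 0.0469). It was 1 to 3 in mock roots at 24 h over 2 h, 1 to 2 in mock shoots at 24 h over 2 h, and 1 to 2 for the difference of these changes. A fit of all 36 libraries called 0 members in mock shoots at 24 h over 2 h in place of 2. The replicate block left 1 member called in place of 2 for the root and shoot difference of the change between 2 h and 24 h (loc_os01g04380.1, adjusted p = 0.0568) and changed no other call of a member. The pairing was not supported outside shoots at 2 h. No direction reversed among the called results under these alternatives. Over all transcripts, DESeq2 called 468, 1135 and 415 in roots at 2, 6 and 24 h where edgeR called 150, 384 and 1, and it called 1, 144 and 3 in shoots where edgeR called 0, 1 and 0. A fit of 18 root libraries called 156, 22 and 505. The cause of these differences was not tested. Depth limits loc_os01g04360.1, loc_os03g14180.1, loc_os01g04370.1 and HSP101, which have few counts.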
